A study of Mus musculus with 37 samples.

Results

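N-oleoylethanolamine (NOE) was compared with its solvent DMSO in pre-B leukemia cells that carried IK6, and the comparison comprised all 8 libraries with these labels, 4 with NOE and 4 with DMSO, of 37 libraries in the series. The cells were C57BL/6 pre-B cells derived from the bone marrow of adult Arf-/- mice, transformed by BCR-ABL1 and then transduced with MIG-IK6, a GFP vector that also expresses IK6. MIG cells, used here for 1 further comparison, had the same genotype and the empty GFP vector, again with 4 libraries treated with NOE and 4 with DMSO. A further 3 libraries were IK6 cells treated with carbacyclin. Every compound was given at 1 µM in DMSO, and all cells grew in RPMI with 10% FCS and no added cytokines, so BCR-ABL1, the loss of Arf and growth without cytokines were shared by every group. How long the cells were treated, which promoter drives IK6 and how many transductions were made were not stated in the labels. Replicates were numbered without a statement that each was its own culture, so the p-values rest on the spread of these libraries, which may be technical.

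NOE is an ethanolamide of oleic acid that cells and tissues make themselves. It is known as a ligand of PPARα, a nuclear receptor that switches on genes of fatty acid oxidation, and of the membrane receptor GPR119, and as an inhibitor of the enzymes that split ceramide. IK6 is a short isoform of Ikaros (Ikzf1), a zinc finger transcription factor that drives lymphoid differentiation and restrains the cell cycle of pre-B cells. It lacks the DNA-binding zinc fingers, pairs with full-length Ikaros and blocks its work, and it is found in BCR-ABL1-positive acute lymphoblastic leukemia. Carbacyclin, an analog of prostacyclin, is known as a ligand of PPARδ.

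The 8 libraries held 30.3 to 63.8 M counted reads, and values below are counts per M reads after TMM scaling (CPM), given as mean ± SD with n = 4, or n = 3 with carbacyclin. The first principal component took 93.6% of the variance of the 8 libraries and parted the treatments, with all DMSO libraries on one side and all NOE libraries on the other. Ribosomal protein genes took 11.5% of the reads of NOE library 1, against 8.03 to 10.5% in the other NOE libraries and 9.10 to 9.57% with DMSO. Ikzf1, whose counts sum the cell's own gene and whatever part of IK6 the counting took in, was at 438, 425, 413 and 419.8 CPM with DMSO and 408, 382, 389 and 350.3 CPM with NOE. These groups did not overlap, and the difference missed the threshold (log2 fold change -0.15 ± 0.06 (SE), adjusted p = 0.0539). It passed under DESeq2 (adjusted p = 0.0209), RLE scaling (adjusted p = 0.0384) and a filter of at least 1 CPM in 4 libraries (adjusted p = 0.0243). It also passed in a fit of the compared groups alone (adjusted p = 0.043), with scaling by total count (adjusted p = 0.0446) and without NOE library 1 (adjusted p = 0.00879). A two-sided exact permutation test of the Ikzf1 level gave p = 0.0286, and 0.0477 after adjustment over 15 values. Cdkn2a, the locus of Arf, gave 65.3, 71.3, 70.2 and 69.5 CPM with DMSO and 152, 125, 93.2 and 159 CPM with NOE. The NOE libraries were all higher (log2 fold change 0.94 ± 0.23 (SE), adjusted p = 0.00126), and since the files sum reads over the whole locus, which also encodes an inhibitor of cyclin-dependent kinases, these counts do not check the Arf deletion. Abl1, whose counts can take in reads of BCR-ABL1, rose from 207 ± 10.4 to 264 ± 11.8 CPM. All 12 pre-B cell markers had reads in these libraries. Of the other cell types' markers, Ly6g, S100a8, S100a9 and Ctsg of granulocytes, Cd8b1 and Gzmb of cytotoxic lymphocytes, Col1a2 and Col3a1 of stroma, and Hba-a1, Hba-a2, Ppbp and Gp1bb of red cells and megakaryocytes had no read in any of the 8. These were 4 of 16 myeloid and 2 of 14 T and NK cell markers. They were also 2 of 11 stromal and endothelial and 4 of 13 erythroid and megakaryocyte markers. Most markers of these lists thus had reads, and the list sums are given below.

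NOE moved a large share of the transcriptome. Of 15699 genes tested, 6425 passed an adjusted p of 0.05 (edgeR's quasi-likelihood test in a model of all 10 groups, Benjamini-Hochberg adjustment), which is 40.9%. The 3575 genes that rose were 22.8% of those tested and the 2850 that fell were 18.2%. Changes of at least 2-fold were far fewer, 1369 genes or 8.72%, of which 857 rose (5.46%) and 512 fell (3.26%). In 5611 genes (35.7%) the change passed the test and no NOE library overlapped a DMSO library. Counts of members of a gene list are to be read against the shares of 22.8% up and 18.2% down. The median log2 fold change over all tested genes was 0.03. In bulk RNA, fewer cells of one kind and less RNA per cell cannot be told apart, and this holds for every gene below.

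**Figure D1:**
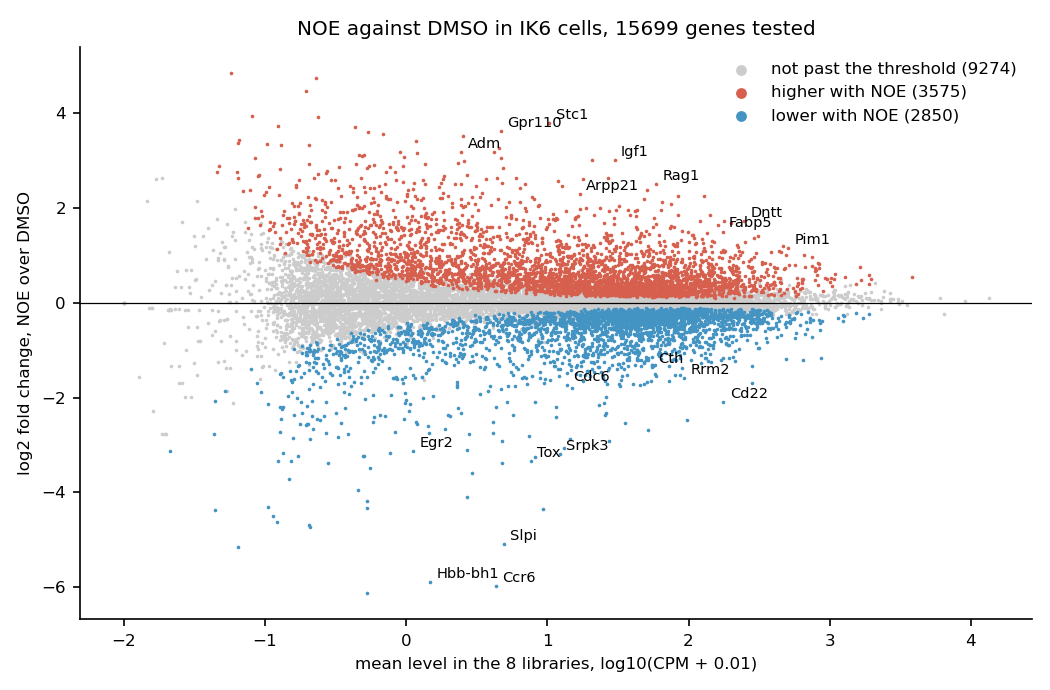
Log2 fold change of NOE over DMSO in IK6 cells (y axis) against the mean level over the 8 libraries, log10(CPM + 0.01) (x axis), for the 15699 genes tested. Red points are the 3575 genes that rose, blue points the 2850 that fell and grey points the rest, with 19 genes labelled.

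Many of the largest rises were in genes with few reads in the DMSO libraries. Stc1, which encodes the secreted glycoprotein stanniocalcin 1, was at 1.61, 0.996, 1.42 and 1.50 CPM with DMSO and 18.4, 19.0, 18.6 and 20.9 CPM with NOE. Every NOE library lay above every DMSO library, 13.8-fold on average (log2 fold change 3.78 ± 0.12 (SE), adjusted p = 4.14e-22). Igf1, insulin-like growth factor 1, gave 5.75, 6.58, 6.94 and 7.28 CPM with DMSO and 52.6, 49.2, 62.5 and 48.8 CPM with NOE. Again the groups did not overlap (log2 fold change 3.00 ± 0.09 (SE), adjusted p = 7.02e-23). Gpr110, an adhesion-type G protein-coupled receptor, rose from 0.696 ± 0.148 to 8.65 ± 1.47 CPM, and Nov, a secreted matrix protein, from 0.834 ± 0.226 to 7.54 ± 0.760 CPM. The lectin Clec4f, the cytokine receptor Tnfrsf8 (CD30), the homeobox gene En2 and Ier3, an early response gene, rose by log2 3.51, 3.40, 3.25 and 3.04 from DMSO levels of at most 1.01 CPM. Among the genes with the smallest p, Arpp21, a phosphoprotein first described in brain, rose from 5.78 ± 0.195 to 28.2 ± 0.618 CPM, and the sodium channel beta subunits Scn4b and Scn2b from 96.1 ± 1.84 to 306 ± 14.0 CPM and from 7.09 ± 0.218 to 24.2 ± 1.11 CPM.

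The largest fall by fold was in a chemokine receptor. Ccr6, the receptor of the chemokine CCL20, was at 8.69, 7.90, 8.96 and 8.24 CPM with DMSO and 0.134, 0.102, 0.180 and 0.125 CPM with NOE. It was 63.0-fold lower with NOE (log2 fold change -5.98 ± 0.16 (SE), adjusted p = 9.47e-24). Cd22, an inhibitory co-receptor of the B cell receptor, gave 292, 284, 293 and 275 CPM with DMSO and 65.8, 71.2, 62.6 and 69.3 CPM with NOE, so the groups lay far apart (log2 fold change -2.09 ± 0.07 (SE), adjusted p = 3.14e-22). Tox, a nuclear factor of lymphocyte development, fell from 13.9 ± 0.699 to 1.36 ± 0.154 CPM, and St3gal5, the GM3 ganglioside synthase, from 48.6 ± 2.04 to 6.43 ± 0.414 CPM. Slpi, a secreted protease inhibitor, fell from 9.51 ± 1.10 to 0.275 ± 0.0441 CPM and Crisp3, a secreted cysteine-rich protein, from 17.6 ± 2.91 to 0.855 ± 0.181 CPM. Lgr5, a receptor of R-spondins, fell from 60.5 ± 2.53 to 10.4 ± 0.687 CPM, Srpk3, a kinase of splicing factors, from 22.2 ± 0.764 to 2.40 ± 0.337 CPM and the organic anion transporter Slco5a1 from 5.12 ± 0.630 to 0.289 ± 0.118 CPM. Enpp6, a choline phosphodiesterase, fell from 14.8 ± 1.39 to 1.55 ± 0.229 CPM, and Chpf, which polymerizes chondroitin, from 8.67 ± 0.461 to 0.833 ± 0.153 CPM. The globin gene Hbb-bh1 fell from 2.89 ± 0.350 to 0.0563 ± 0.0574 CPM, with Hbb-b2 (41.4 ± 2.02 to 10.6 ± 1.78 CPM) and Hbb-b1 (5.97 ± 0.479 to 1.64 ± 0.452 CPM) in the same direction. Globin genes have near-identical copies whose reads the counting could split, so their single values are uncertain.

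**Figure D2:**
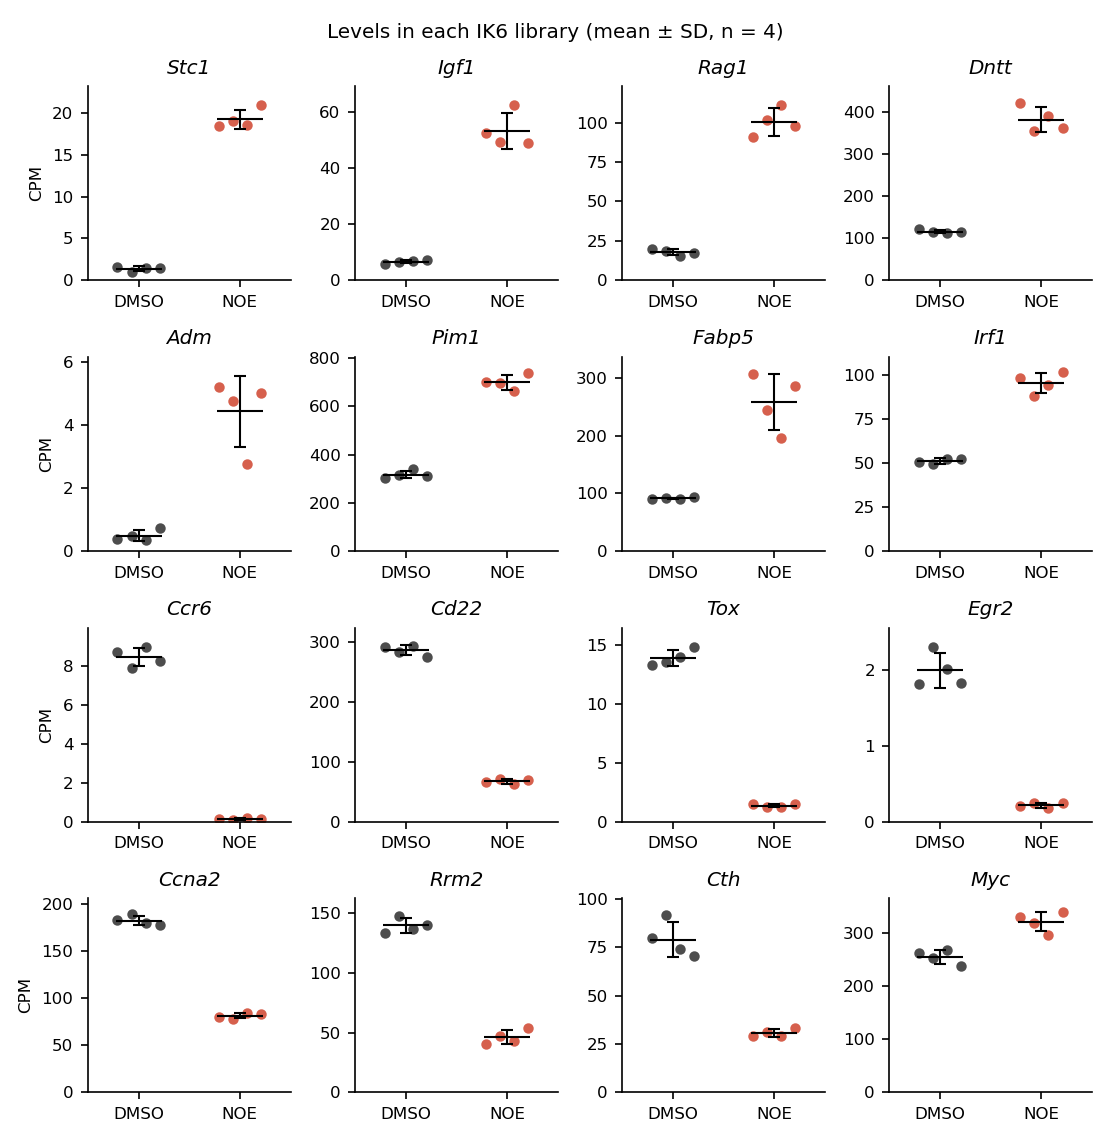
CPM in each IK6 library for 16 genes, each panel with its own axis from 0, the 4 DMSO libraries at left and the 4 NOE libraries at right, with bars for mean ± SD. In all 16 panels the libraries of the treatments do not overlap, from Stc1 (1.38 ± 0.270 to 19.2 ± 1.15 CPM) to Myc (255 ± 13.2 to 322 ± 18.2 CPM).

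Genes of DNA replication and mitosis fell together. All 32 of the S and G2/M phase genes that were listed passed the test and were lower with NOE, where 18.2% of all tested genes fell, and in each of the 32 the libraries did not overlap. Their log2 fold changes ran from -1.74 to -0.60 with a median of -1.04. Ccna2, cyclin A2, was at 183, 189, 179 and 178 CPM with DMSO and 79.7, 78.4, 84.1 and 83.6 CPM with NOE (log2 fold change -1.16 ± 0.06 (SE), adjusted p = 2.93e-16). Rrm2, a subunit of the reductase that makes deoxynucleotides, was at 133, 148, 137 and 140.4 CPM with DMSO and 40.7, 47.6, 42.6 and 54.0 CPM with NOE (log2 fold change -1.59 ± 0.09 (SE), adjusted p = 2.09e-15). The replication licensing genes Cdc6 (21.2 ± 1.32 to 6.28 ± 1.08 CPM) and Mcm4 (115 ± 2.26 to 49.8 ± 3.22 CPM), the G1/S cyclin Ccne1 (14.4 ± 0.945 to 4.70 ± 0.514 CPM), the topoisomerase Top2a (907 ± 38.0 to 391 ± 16.9 CPM) and the spindle checkpoint kinase Bub1b (182 ± 8.64 to 92.4 ± 3.79 CPM) fell as well. Of 21 genes listed as cell cycle inhibitors or quiescence genes, 13 rose and 3 fell, with a median log2 fold change of 0.40. The cyclin-dependent kinase inhibitors Cdkn1b (158 ± 5.26 to 246 ± 10.2 CPM), Cdkn1a (57.3 ± 2.36 to 108 ± 16.7 CPM) and Cdkn2b (5.33 ± 0.239 to 9.83 ± 0.707 CPM) rose, as did the antiproliferative gene Btg2 (48.4 ± 2.55 to 112 ± 5.52 CPM) and Foxo1 (108 ± 1.79 to 185 ± 8.39 CPM), a transcription factor held in the cytoplasm by AKT. Rbl1, the retinoblastoma relative p107, fell from 83.0 ± 2.50 to 40.6 ± 3.48 CPM, and the G1 cyclin Ccnd2 from 1372 ± 24.0 to 1137 ± 56.7 CPM.

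Many S phase promoters carry an E2F site and many G2/M promoters the CHR element, and both were searched as TTTCCCGC and TTTGAA on both strands of the RefSeq promoter windows (GRCm38.p6, 250 bases before to 50 after the start). Of the tested genes, 9644 matched a window by symbol. The E2F site was in 2.26% of these, in 3.93% of those that fell and in 1.38% of those that rose, and among the listed S and G2/M genes with a window in 3 of 26. CHR was in 14.5% of all, 18.3% of those that fell, 14.9% of those that rose and 11 of 26 of the list. Of all 32851 RefSeq windows, 1.07% held the E2F site and 17.9% CHR. Shown for the fall of the cell cycle genes are the 150 bases before the start of Cdc6 (chr11:98908001-98908150, plus strand) and Top2a (chr11:99024190-99024339, minus strand), the genes with the smallest p whose stretch held each motif, with the motif in capitals and its complement where the match lies on the other strand.
Cdc6: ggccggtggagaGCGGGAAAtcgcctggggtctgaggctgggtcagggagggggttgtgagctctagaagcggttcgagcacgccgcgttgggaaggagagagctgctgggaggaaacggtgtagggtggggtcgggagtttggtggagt
Top2a: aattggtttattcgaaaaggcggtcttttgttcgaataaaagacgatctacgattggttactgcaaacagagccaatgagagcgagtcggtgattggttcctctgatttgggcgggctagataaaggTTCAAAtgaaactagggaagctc

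Genes of ribosome biogenesis and other MYC targets were lower with NOE, while the transcript of Myc itself was higher. Of the 30 listed, 20 fell and 2 rose, where 22.8% of all tested genes rose and 18.2% fell, with a median log2 fold change of -0.38. Nolc1, a nucleolar chaperone, was at 196, 184, 184 and 177 CPM with DMSO and 107, 91.8, 99.9 and 103 CPM with NOE, and the groups did not overlap (log2 fold change -0.88 ± 0.05 (SE), adjusted p = 2.16e-16). Cad, the multifunctional enzyme that starts pyrimidine synthesis, fell from 137 ± 11.0 to 83.4 ± 5.75 CPM. Myc was at 262, 254, 268 and 238 CPM with DMSO and 330.0, 320.1, 297 and 339.9 CPM with NOE. Each NOE library lay above each DMSO library (log2 fold change 0.33 ± 0.06 (SE), adjusted p = 7.42e-06). The E-box of MYC, CACGTG, was in the windows of 7 of 23 genes of this list and of 11.5% of all tested genes with one.

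Genes of glycolysis and of the hypoxia response rose. These lists hold the enzymes and transporters of glucose use and the targets of the oxygen-regulated factor HIF-1. Of 21 glycolysis genes 19 rose and 1 fell, and of 20 hypoxia genes 17 rose and 1 fell, where 22.8% of all tested genes rose. Their median log2 fold changes were 0.59 and 0.81. P4ha2, a collagen prolyl hydroxylase, was at 14.3, 17.0, 18.6 and 21.2 CPM with DMSO and 62.6, 80.4, 55.6 and 75.8 CPM with NOE (log2 fold change 1.95 ± 0.16 (SE), adjusted p = 4.23e-12). Adm, the vasodilator peptide adrenomedullin, was at 0.364, 0.482, 0.350 and 0.741 CPM with DMSO and 5.19, 4.75, 2.77 and 5.00 CPM with NOE. Both genes were higher in every NOE library. Egln3 (132 ± 9.75 to 306 ± 39.5 CPM) and Egln1 (95.2 ± 4.62 to 200.1 ± 33.4 CPM), the hydroxylases that mark HIF-1α for destruction, rose, as did Ndrg1 (54.5 ± 1.28 to 114 ± 13.4 CPM), the mitophagy receptor Bnip3 (162 ± 7.71 to 421 ± 56.8 CPM) and the ER oxidase Ero1l (329.6 ± 11.1 to 658 ± 22.6 CPM). Among glycolysis genes the glucose transporter Slc2a3 rose from 26.4 ± 0.780 to 63.7 ± 4.17 CPM, hexokinase Hk1 from 110.4 ± 3.49 to 186 ± 22.6 CPM, phosphofructokinase Pfkl from 238 ± 9.05 to 421 ± 67.0 CPM, aldolase Aldoa from 1222 ± 24.7 to 2059 ± 393 CPM and Gapdh from 1403 ± 13.9 to 1946 ± 339.5 CPM. Pdk1, a kinase that inhibits pyruvate dehydrogenase, rose from 504 ± 20.5 to 984 ± 34.8 CPM. Exceptions were the monocarboxylate transporter Slc16a1, which fell (224 ± 4.09 to 165 ± 8.23 CPM), and lactate dehydrogenase Ldha, which missed the threshold (1788 ± 34.2 CPM with DMSO and 2383 ± 441 CPM with NOE, adjusted p = 0.0732). The Ldha libraries did not overlap, and it passed in a fit of the compared groups alone (adjusted p = 0.0139), with scaling by total count (adjusted p = 0.0352) and without NOE library 3 (adjusted p = 0.0432). Hif1a itself (118 ± 3.08 CPM with DMSO and 113 ± 11.9 CPM with NOE) and Vegfa (410.0 ± 9.05 CPM with DMSO and 396 ± 34.4 CPM with NOE), an endothelial growth factor under HIF-1, did not pass. The call of Gapdh was lost without DMSO library 1, 2, 3 or 4 or NOE library 1, 2 or 4 and under no filter on low counts (adjusted p = 0.0534 to 0.132).

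The core of the hypoxia response element, searched as ACGTG on both strands, was in 14 of 16 hypoxia genes and 13 of 19 glycolysis genes with a window, against 28.6% of all tested genes and 19.6% of all windows. Of the genes that rose 27% held the core, and of those that fell 31.8%. The core lies within the E-box CACGTG, so their matches overlap, and it was chosen after these values were seen. The 150 bases before the start of P4ha2 (chr11:54100774-54100923, plus strand) and P4ha1 (chr10:59323146-59323295, plus strand), which rose from 160.3 ± 4.19 to 272 ± 18.6 CPM, are shown for this group with the core in capitals.
P4ha2: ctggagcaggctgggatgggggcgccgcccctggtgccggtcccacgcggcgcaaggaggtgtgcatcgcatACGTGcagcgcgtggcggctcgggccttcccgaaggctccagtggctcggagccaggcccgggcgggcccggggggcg
P4ha1: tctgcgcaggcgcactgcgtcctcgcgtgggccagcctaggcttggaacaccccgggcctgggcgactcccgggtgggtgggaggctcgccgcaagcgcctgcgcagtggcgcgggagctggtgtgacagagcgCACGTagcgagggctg

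The receptors that NOE is known to bind had few reads. Over all 37 libraries together Ppara had 37 reads, Pparg 9 and Gpr119 6, too few to be tested. Ppard, the PPAR form with the most reads, was at 38.4, 33.8, 36.8 and 34.5 CPM with DMSO and 65.3, 76.7, 50.1 and 70.2 CPM with NOE. Its NOE libraries were all higher (log2 fold change 0.87 ± 0.10 (SE), adjusted p = 3.87e-09). Rxra, the partner of PPARs on DNA, rose from 19.2 ± 0.568 to 31.8 ± 2.36 CPM, the cannabinoid receptor Cnr2 from 2.99 ± 0.302 to 5.08 ± 0.347 CPM and the coactivator Ppargc1a from 0.200 ± 0.0964 to 0.404 ± 0.117 CPM, while the coactivators Ppargc1b (9.61 ± 0.767 to 6.96 ± 0.732 CPM) and Ncoa1 (64.1 ± 1.43 to 55.7 ± 4.49 CPM) fell. The remaining 5 of the 11 tested in this list of 17, among them Gpr55, Rxrb, Ncor1 and Med1, did not pass. The call of Ncoa1 was lost without DMSO library 2, 3 or 4 or NOE library 4 and under scaling by total count (adjusted p = 0.0549 to 0.145). The call of Ppargc1a was lost without DMSO library 3 or NOE library 1 (adjusted p = 0.0679 to 0.0894).

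Targets of PPARs went in both directions. Of 35 listed, 28 were tested, 11 rose, 3 fell and 14 did not pass, with a median log2 fold change of 0.17 against 0.03 over all genes. Among all tested genes 22.8% rose and 18.2% fell. Without NOE library 1 the number that fell was 5, and with scaling by total count alone it was 6. Acsl1, which activates fatty acids with coenzyme A, was at 53.6, 52.4, 56.2 and 52.4 CPM with DMSO and 105, 100.1, 103 and 99.5 CPM with NOE. Each NOE library was higher (log2 fold change 0.93 ± 0.05 (SE), adjusted p = 2.43e-17). The carnitine carrier Slc25a20 (7.20 ± 0.590 to 12.1 ± 1.14 CPM), the fatty acid transporter Slc27a1 (18.7 ± 1.47 to 30.5 ± 4.98 CPM) and the mitochondrial carrier Ucp2 (1621 ± 24.2 to 2280.0 ± 282 CPM) also rose, as did Eci1, Acaa1a, Acadm, Pex11a, Acot1 and Etfdh, whose log2 fold changes ran from 0.14 to 1.58. Cpt1a, which takes fatty acids into mitochondria and is a standard PPAR target, was at 48.4, 51.3, 53.8 and 51.8 CPM with DMSO and 43.9, 45.1, 40.5 and 42.0 CPM with NOE. It was lower in every NOE library (log2 fold change -0.26 ± 0.05 (SE), adjusted p = 5.91e-05). Cd36, a fatty acid receptor at the cell surface, fell further, from 11.0 ± 0.440 to 3.39 ± 0.507 CPM, and Decr1, a dienoyl-CoA reductase, from 20.7 ± 0.250 to 17.4 ± 1.21 CPM. Angptl4 (1.49 ± 0.172 CPM with DMSO and 1.11 ± 0.315 CPM with NOE), which inhibits lipoprotein lipase, and the lipid droplet protein Plin2 (25.0 ± 1.01 CPM with DMSO and 28.1 ± 3.39 CPM with NOE) did not pass. Pdk4, a kinase that spares glucose, had 1 read in the 4 NOE libraries and 1 in the 4 DMSO libraries. The other members that did not pass were Acadl, Hadha, Eci2, Hadhb, Acaa2, Cpt1b, Lpl, Ucp3, Acadvl, Acot2 and Cpt2. Of these, Acadl (adjusted p = 0.00305), Hadha (adjusted p = 0.0132) and Hadhb (adjusted p = 0.0207) passed as lower with scaling by total count. Without NOE library 1 Acadl (adjusted p = 0.0173) and Hadha (adjusted p = 0.0163) did so. Acadl also passed with the 1 CPM filter (adjusted p = 0.0466) and Hadha in a fit of the compared groups alone (adjusted p = 0.0276). The list members without enough reads included Ehhadh, Fabp4, Cyp4a10, Cyp4a14, Fgf21 and Vnn1. The call of Decr1 was lost without DMSO library 1, 2, 3 or 4 or NOE library 2, 3 or 4 and under no filter on low counts (adjusted p = 0.0515 to 0.119). The call of Etfdh was lost without NOE library 1, 3 or 4 and under scaling by total count and no filter on low counts and a fit of the compared groups alone (adjusted p = 0.0515 to 0.153).

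A single copy of the nuclear receptor motif AGGTCA was in the windows of 6 of 22 PPAR targets and 15.0% of all tested genes with a window. It was in 15.9% of those that rose and 12.6% of those that fell. A high share was not confined to PPAR targets. The motif was in 4 of 8 windows of heat shock genes, 5 of 12 of fatty acid synthesis genes and 8 of 27 of sphingolipid genes. Lower shares were found in MYC target and ribosome biogenesis genes (3 of 23) and in ERK feedback and immediate early genes (1 of 20). In the genes that make and break acylethanolamides and monoacylglycerols, 13 of 16 were tested, 4 rose and 2 fell, against 40.9% called over all genes. Fabp5, a fatty acid binding protein that carries such lipids to degradation and to PPARδ, was at 89.7, 91.8, 89.9 and 93.0 CPM with DMSO and 306, 245, 196 and 286 CPM with NOE. The NOE libraries varied among themselves and all lay above the DMSO libraries (log2 fold change 1.50 ± 0.16 (SE), adjusted p = 2.34e-09). Gdpd1, a phosphodiesterase (5.76 ± 0.648 to 9.83 ± 0.355 CPM), and the monoacylglycerol lipases Mgll (27.9 ± 0.536 to 38.7 ± 3.15 CPM) and Abhd6 (5.56 ± 0.400 to 7.16 ± 0.490 CPM) rose, and Daglb, a diacylglycerol lipase, fell (7.86 ± 0.439 to 6.09 ± 0.408 CPM). Faah, the amidase that hydrolyses NOE, fell from 1.60 ± 0.133 to 1.18 ± 0.258 CPM (adjusted p = 0.0212). The call of Faah was lost without DMSO library 2 or 3 or NOE library 1 and under a fit of the compared groups alone (adjusted p = 0.0528 to 0.0663). Naaa (7.76 ± 0.452 CPM with DMSO and 8.82 ± 1.03 CPM with NOE), which also degrades NOE, and Napepld (7.53 ± 0.723 CPM with DMSO and 8.18 ± 0.760 CPM with NOE), which makes it, did not pass, nor did Abhd12, Dagla, Gdpd3, Gde1 and Abhd4. Without NOE library 3 the number of members that rose was 7, Naaa among them.

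In the sphingolipid list 34 of 36 genes were tested, 15 rose and 5 fell (44.1% and 14.7%, median log2 fold change 0.14), where 22.8% of all tested genes rose and 18.2% fell. Among the receptors of sphingosine 1-phosphate, S1pr1, which guides lymphocytes out of tissues, was at 8.69, 7.23, 8.27 and 8.48 CPM with DMSO and 27.4, 23.9, 25.4 and 24.6 CPM with NOE. Its groups lay well apart (log2 fold change 1.63 ± 0.07 (SE), adjusted p = 3.95e-18). S1pr3 (24.1 ± 1.36 to 45.6 ± 3.99 CPM) and S1pr4 (23.2 ± 1.32 to 54.8 ± 9.61 CPM) rose too, and S1pr2 fell (3.60 ± 0.373 to 2.91 ± 0.182 CPM). Sgpl1, the lyase that ends the pathway, rose from 40.5 ± 0.993 to 66.1 ± 4.88 CPM and Asah1, acid ceramidase, from 95.2 ± 1.21 to 116 ± 6.72 CPM. Asah2, Acer2, Smpd1, Smpd3, Sphk1, Degs2, Cerk, Ormdl3 and Lass5 rose by log2 0.22 to 2.64, the highest in Sphk1, at 0.0559 ± 0.0542 CPM with DMSO and 0.373 ± 0.0532 CPM with NOE. Sgms1, a sphingomyelin synthase, fell from 39.1 ± 0.889 to 25.6 ± 1.20 CPM, and Smpd4 and the phosphatases Sgpp1 and Sgpp2 fell by log2 0.43 to 1.35. Members that did not pass were Ormdl1, Smpd2, Lass4, Degs1, Kdsr, Lass2, Sptlc1, Ugcg, Ormdl2, Gba2, Sphk2, Acer3, Sptlc2 and Spns2. Of these, Ormdl1 passed as lower under 7 alternatives, among them DESeq2 (adjusted p = 0.0421) and scaling by total count (adjusted p = 0.00503). The call of Acer2 was lost without DMSO library 1, 2, 3 or 4 or NOE library 1, 2 or 3 and under DESeq2 and scaling by total count and no filter on low counts (adjusted p = 0.0514 to 0.0993). The call of Ormdl3 was lost without DMSO library 1 or 4 or NOE library 1 or 4 and under no filter on low counts (adjusted p = 0.0509 to 0.131). The call of S1pr2 was lost without DMSO library 2 or 3 or NOE library 2 or 3 and under no filter on low counts (adjusted p = 0.0585 to 0.102). The call of Smpd1 was lost without NOE library 1 (adjusted p = 0.074).

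**Figure D3:**
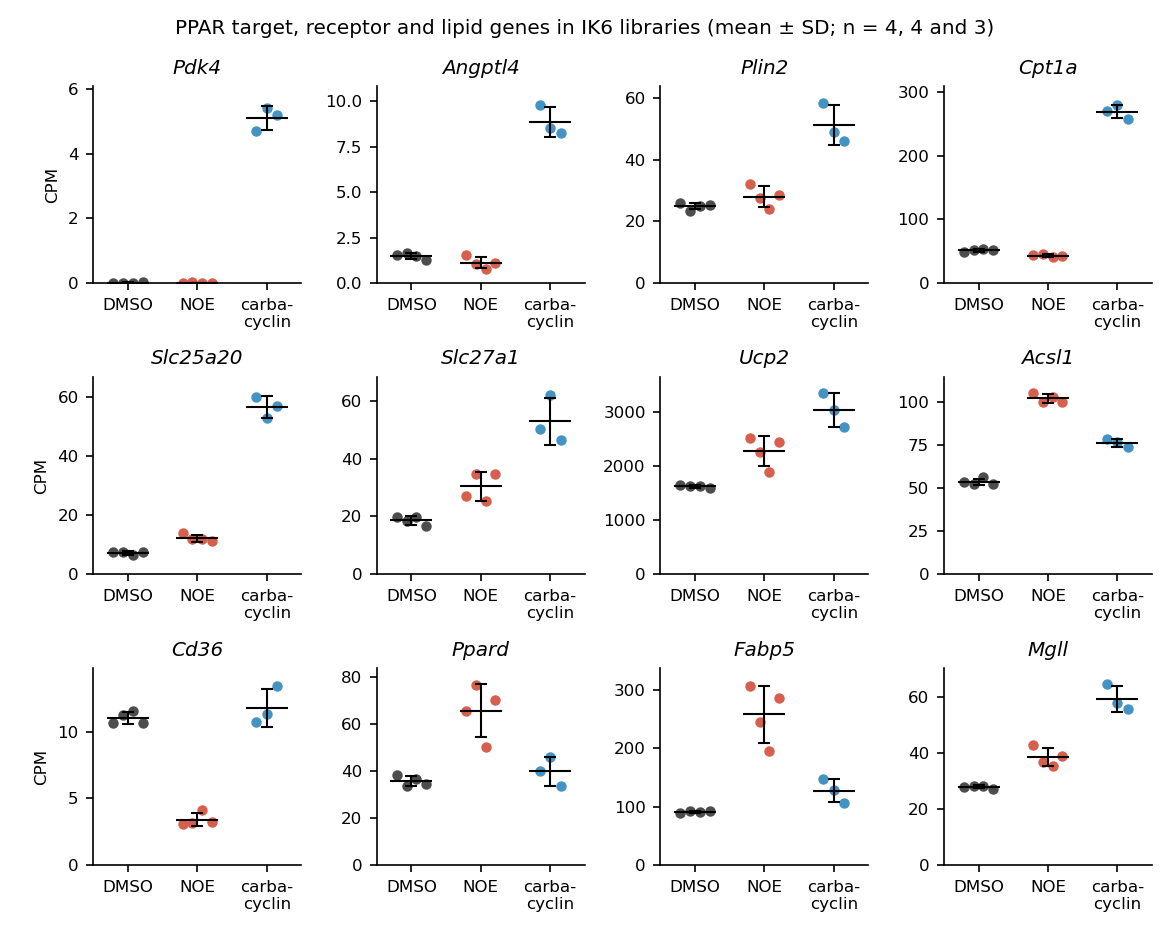
CPM in each IK6 library for 12 PPAR target, receptor and lipid genes with DMSO (4 libraries), NOE (4) and carbacyclin (3), bars for mean ± SD, each axis from 0. Pdk4, Angptl4, Cpt1a and Slc25a20 are highest with carbacyclin, and Ppard and Fabp5 are highest with NOE.

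Lists of other lipid programmes were also counted, where 22.8% of all tested genes rose and 18.2% fell. Of 23 cholesterol synthesis genes, 12 fell and 1 rose (median -0.20), among them Acat2 (116 ± 4.58 to 67.9 ± 3.08 CPM), Pmvk (68.2 ± 3.88 to 39.6 ± 4.10 CPM) and the SREBP retention factor Insig1 (206 ± 6.47 to 146 ± 5.27 CPM). Their windows held a CCAAT box (CCAAT) in 13 of 14, against 43.1% of all tested genes. A high share was not confined to this list. The box was in 21 of 26 windows of S and G2/M genes and 16 of 18 of unfolded protein response genes, but in 6 of 19 of glycolysis genes. In fatty acid synthesis 3 of 15 rose, with Gpam, the first enzyme of glycerolipid synthesis, from 52.2 ± 2.01 to 91.2 ± 6.01 CPM, and 3 fell. Both counts are near the shares over all tested genes, so they are no result about this list. Of 8 tested targets of LXR, the receptor of oxysterols, 4 rose and none fell, but 1 fell when libraries were scaled by total count and 1 when the compared groups were fitted alone. The cholesterol exporter Abcg1 was at 29.9, 26.5, 29.7 and 25.9 CPM with DMSO and 84.5, 77.9, 69.7 and 74.8 CPM with NOE, higher in each NOE library (log2 fold change 1.46 ± 0.06 (SE), adjusted p = 9.30e-20). Of 11 tested retinoic acid response genes, 8 rose and none passed downward (median 0.74), and 5 rose without NOE library 4. Among them Tgm2, a transglutaminase, rose from 17.5 ± 1.12 to 79.9 ± 13.3 CPM.

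Genes of the integrated stress response, which ATF4 drives when amino acids run short, were mostly lower. Of 30 listed, 21 fell and 4 rose, where 22.8% of all tested genes rose and 18.2% fell (median -0.53). Cth, which makes cysteine from cystathionine, was at 79.7, 91.4, 74.2 and 70.2 CPM with DMSO and 29.1, 31.2, 29.2 and 33.3 CPM with NOE (log2 fold change -1.36 ± 0.09 (SE), adjusted p = 2.34e-14). Mthfd2 (143 ± 6.21 to 88.7 ± 6.84 CPM) and Shmt2 (331 ± 21.8 to 191 ± 19.0 CPM) of mitochondrial one-carbon metabolism, the transaminases Gpt2 (66.0 ± 3.19 to 39.4 ± 1.63 CPM) and Psat1 (237 ± 8.32 to 129 ± 11.1 CPM), asparagine synthetase Asns (236 ± 12.4 to 131 ± 3.69 CPM), the leucine transporter Slc7a5 (226 ± 16.3 to 135 ± 9.05 CPM) and Atf4 itself (243 ± 5.44 to 195 ± 14.4 CPM) fell. Atf3, a related stress factor, rose from 9.63 ± 0.772 to 17.1 ± 1.61 CPM. Unfolded protein response genes gave 3 rises and 7 falls in 21, and heat shock genes 6 falls and no rise in 12 (median -0.23). Of 15 oxidative stress genes under NRF2, 6 rose and 2 fell, with Osgin1, an inhibitor of growth, from 1.23 ± 0.231 to 7.59 ± 0.717 CPM.

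Most interferon response genes rose. Of 30, 27 rose and 1 fell, with a median log2 fold change of 0.80 against 22.8% rising over all genes. Gbp2, an interferon-induced GTPase, was at 47.3, 42.6, 45.0 and 43.3 CPM with DMSO and 245, 187, 229 and 193 CPM with NOE (log2 fold change 2.26 ± 0.14 (SE), adjusted p = 3.42e-15), and its reads may be split with near relatives. Irf1, a transcription factor of the interferon response, was at 50.4, 49.4, 52.5 and 52.3 CPM with DMSO and 98.2, 88.1, 94.2 and 102 CPM with NOE. In both, no library of one treatment reached the other (log2 fold change 0.90 ± 0.05 (SE), adjusted p = 2.45e-15 for Irf1). Usp18 (1.71 ± 0.215 to 5.04 ± 0.147 CPM) and Rtp4 (0.399 ± 0.109 to 2.30 ± 0.295 CPM) rose from low levels, and Ifit2 fell from 21.4 ± 1.15 to 14.7 ± 1.22 CPM. An ISRE core, GAAANNGAA on both strands and chosen after these values were seen, was in the windows of 13 of 21 of these genes and of 8.51% of all tested genes, and 8.56% of all windows held it. The 150 bases before the start of Gbp2 (chr3:142620513-142620662, plus strand) are shown for the group, with the core in capitals.
Gbp2: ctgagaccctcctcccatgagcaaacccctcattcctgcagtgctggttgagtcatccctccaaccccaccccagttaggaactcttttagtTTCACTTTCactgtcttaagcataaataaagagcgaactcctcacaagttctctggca

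Signalling targets differed by pathway. Of 17 STAT5 target and SOCS genes, whose activator STAT5 lies downstream of BCR-ABL1, 13 rose and 3 fell (median 0.54), where 22.8% of all tested genes rose and 18.2% fell. Pim1, a survival kinase, was at 302, 313, 338 and 312 CPM with DMSO and 701, 696, 664 and 738 CPM with NOE (log2 fold change 1.15 ± 0.05 (SE), adjusted p = 1.19e-17). The feedback inhibitors Cish (71.0 ± 3.47 to 179 ± 9.65 CPM) and Socs3 (72.6 ± 6.23 to 153 ± 20.2 CPM) rose with it. The STAT motif GAS was searched as TTCNNNGAA and chosen after these values were seen. It was in 3 of 12 windows of the list, 8.48% of all tested genes and 8.30% of all windows. Such a share was not particular to this list. GAS was in 3 of 12 windows of NF-kB targets, 4 of 15 of Ikaros family and B-lineage factors and 6 of 21 of interferon genes. Lower shares were found in S and G2/M genes (1 of 26) and in MYC target and ribosome biogenesis genes (2 of 23). Of 16 NF-kB targets 10 rose and 1 fell, with Tnfaip3 (38.2 ± 1.01 to 94.8 ± 1.51 CPM), Tnf (30.6 ± 2.21 to 63.7 ± 5.63 CPM) and Ltb (12.6 ± 0.576 to 52.0 ± 10.8 CPM) higher. ERK feedback and immediate early genes divided, 6 up and 10 down of 26. Egr2 (2.00 ± 0.230 to 0.219 ± 0.0339 CPM) and Egr1 (39.4 ± 2.13 to 17.7 ± 1.60 CPM), growth-induced zinc finger factors, fell with Etv4 (20.2 ± 1.08 to 8.19 ± 0.858 CPM) and the Sprouty inhibitors Spry4 (13.2 ± 0.354 to 6.13 ± 0.460 CPM) and Spry1 (31.3 ± 1.38 to 18.0 ± 1.53 CPM). Jun (25.0 ± 2.51 to 67.9 ± 6.69 CPM) and Fosl2 (1.19 ± 0.104 to 3.29 ± 0.516 CPM), subunits of AP-1, rose. Of 15 cAMP and CREB responsive genes 5 rose and 4 fell, and the CRE, TGACGTCA, was in 2.50% of the windows of genes that rose, 4.52% of those that fell and 3.57% of all.

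Genes of immunoglobulin recombination and the pre-B receptor rose, in cells that lowered Cd22 and Ccr6. Of 25 genes of the pre-B receptor and the B lineage, 15 rose and 5 fell, the falls being near their share among all tested genes. Those that fell were Cd22, Cd72 (102 ± 4.06 to 68.9 ± 2.49 CPM), Cr2 (26.8 ± 0.694 to 15.0 ± 2.31 CPM), Cd2 (168 ± 6.47 to 131 ± 15.1 CPM) and Ms4a1 (0.943 ± 0.282 to 0.502 ± 0.156 CPM). Rag1, which cuts immunoglobulin genes for recombination, was at 20.1, 18.3, 15.3 and 17.3 CPM with DMSO and 91.0, 102, 112 and 97.6 CPM with NOE. The NOE libraries were about 5.66-fold higher, with no overlap (log2 fold change 2.50 ± 0.09 (SE), adjusted p = 3.52e-20). Its partner Rag2 rose from 2.37 ± 0.302 to 8.60 ± 0.886 CPM, and Dntt, which adds bases at the joins, from 116 ± 4.25 to 382 ± 30.0 CPM. Il7r (58.4 ± 2.42 to 142 ± 18.5 CPM), the surrogate light chain genes Igll1 (894 ± 38.0 to 1262 ± 61.4 CPM) and Vpreb1 (594 ± 19.7 to 1056 ± 181 CPM), Cd79a (751 ± 15.2 to 1086 ± 163 CPM) and the adaptors Blnk (140.5 ± 4.63 to 269 ± 10.7 CPM) and Bank1 (16.6 ± 2.52 to 59.9 ± 6.67 CPM) rose. Pax5, which fixes B cell identity, was at 178 ± 12.2 CPM with DMSO and 154 ± 24.5 CPM with NOE and did not pass. Of 20 transcription factors of the Ikaros family and the B lineage 8 rose and 4 fell, where 22.8% of all tested genes rose and 18.2% fell. The 12 pre-B cell markers summed to 5095 to 5383 with DMSO and 6363 to 6984 CPM with NOE, and 7 of them rose.

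Among 8 tested stem and progenitor genes 4 rose and 2 fell, where 22.8% of all tested genes rose and 18.2% fell. Erg, an ETS factor of stem cells, was at 87.7, 79.3, 85.0 and 79.9 CPM with DMSO and 264, 289, 266 and 276 CPM with NOE. All NOE libraries exceeded all DMSO libraries (log2 fold change 1.72 ± 0.06 (SE), adjusted p = 3.61e-21). Ly6a (3.46 ± 0.393 to 20.4 ± 2.72 CPM), whose reads may be split with near relatives, and the cytokine receptors Flt3 (0.619 ± 0.133 to 3.03 ± 0.389 CPM) and Kit (0.620 ± 0.0634 to 2.86 ± 0.162 CPM) rose too, and Lmo2 fell (56.3 ± 2.28 to 26.9 ± 1.25 CPM). Of 28 integrin and adhesion genes, 16 rose and 6 fell, with Itgb7 (2.01 ± 0.242 to 8.71 ± 1.06 CPM), E-cadherin Cdh1 (5.30 ± 0.883 to 18.0 ± 2.55 CPM) and Itgal (209 ± 10.1 to 345 ± 10.3 CPM) higher and Itgb3 lower (35.5 ± 1.73 to 14.8 ± 0.0530 CPM). MHC class II genes split. The invariant chain Cd74 (48.5 ± 2.31 to 86.8 ± 10.8 CPM) and H2-DMb2 (10.2 ± 0.373 to 27.5 ± 3.04 CPM) rose with 3 others of 10, while H2-Aa (2.02 ± 0.0772 to 0.335 ± 0.0835 CPM), H2-Eb1 (1.30 ± 0.183 to 0.418 ± 0.0701 CPM) and their activator Ciita (1.22 ± 0.108 to 0.404 ± 0.0139 CPM) fell. In the BCL2 family 6 of 14 tested genes rose and 3 fell, the falls being near their share among all tested genes. Both survival and death genes were among those that rose: Bcl2 from 66.6 ± 5.65 to 160.2 ± 23.1 CPM, Mcl1 from 264 ± 2.15 to 316 ± 30.5 CPM, and the BH3-only genes Bcl2l11 (Bim) from 85.3 ± 2.21 to 159.9 ± 9.59 CPM and Bmf from 34.5 ± 1.64 to 59.1 ± 3.63 CPM. The BH3-only gene Pmaip1 (Noxa) fell from 28.4 ± 2.59 to 13.5 ± 0.524 CPM and the BH3-only gene Bid from 51.4 ± 2.18 to 36.1 ± 2.22 CPM. Bcl2a1d, whose reads may be split with near relatives, passed as lower on few reads, 0.0226 ± 0.0309 CPM with DMSO and no read with NOE (adjusted p = 0.0467). Its SD exceeds its mean, so this call rests largely on counting error and shows no fall by itself.

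Few respiratory chain genes passed the test. Of 26 nuclear genes of oxidative phosphorylation none rose and 2 fell, and of 13 mitochondrially encoded genes none rose and 1 fell, with medians of -0.05 and 0.03. Of 18 p53 target genes 3 rose and 7 fell, and of 24 lysosome and autophagy genes 11 rose and 1 fell, or 7 rose without NOE library 1. Among all tested genes 22.8% rose and 18.2% fell. Sums of other cell types' markers also differed between the treatments. The 16 myeloid markers summed to 4.53 to 5.93 with DMSO and 17.6 to 20.7 CPM with NOE, mostly from Lyz2 (2.88 ± 0.514 to 13.3 ± 1.45 CPM), and 14 of them were under 1 CPM in all 8 libraries. T and NK cell markers summed to 132 to 139 with DMSO and 153 to 203 CPM with NOE, with 9 of 14 under 1 CPM in all 8 libraries and most of the sum from Lck (105 ± 2.45 to 137 ± 15.8 CPM) and Thy1 (23.1 ± 1.35 to 36.1 ± 5.40 CPM). Stromal and endothelial markers summed to 46.6 to 56.2 with DMSO and 59.2 to 63.3 CPM with NOE, with 10 of 11 under 1 CPM in all 8 libraries and most of the sum from Pecam1 (49.2 ± 4.39 to 61.4 ± 1.88 CPM). Plasma cell markers summed to 478 to 508 with DMSO and 554 to 652 CPM with NOE. Of the 5 tested, Xbp1 rose (319.5 ± 17.2 to 469.6 ± 42.0 CPM), while Sdc1 (10.00 ± 0.377 to 3.29 ± 0.630 CPM), Irf4 (156 ± 7.77 to 124 ± 6.65 CPM) and Igj (1.16 ± 0.0747 to 0.760 ± 0.133 CPM) fell. Erythroid and megakaryocyte markers summed to 48.9 to 54.3 with DMSO and 14.2 to 17.5 CPM with NOE, mostly globins. Each of these sums kept the treatments apart (two-sided exact permutation test, p = 0.0286, which is the minimum over 70 splits, and 0.0477 after adjustment over 15 values). Their part in the results above was not tested.

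**Figure D4:**
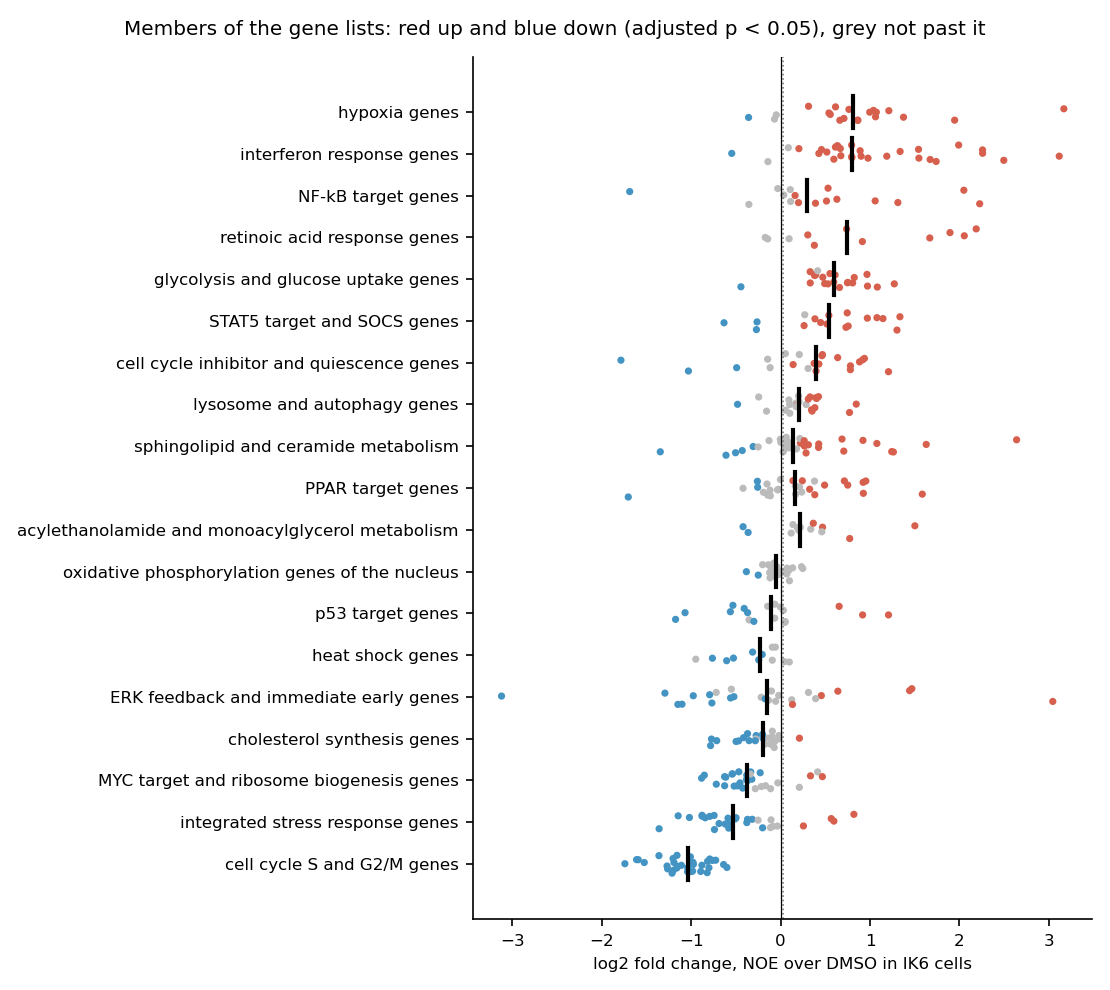
Log2 fold change of NOE over DMSO (x axis) for each tested member of 19 gene lists (rows), red where it rose and blue where it fell at an adjusted p under 0.05, grey otherwise. Black bars are list medians and the dotted line is the median of all genes, 0.03. The S and G2/M row lies wholly below 0, and the interferon, hypoxia and glycolysis rows lie mostly above it.

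The response could be set beside that of MIG cells, with which these 8 libraries share no control. MIG DMSO library 3 stood apart from its group, with 15.4% of its reads from ribosomal protein genes against 9.27 to 9.84% in the other MIG DMSO libraries, and its part in the results on MIG cells is given below by values without it. In MIG cells NOE moved 7050 genes (44.9%), of which 3547 rose (22.6%) and 3503 fell (22.3%). Genes called in both and in the same direction numbered 4684, which is 72.9% of the IK6 calls and 66.4% of the MIG calls: 15.4% of tested genes rose in both and 14.4% fell in both. Opposite calls were made in 91 genes (0.580%). The difference of the 2 responses, tested as an interaction, passed in 1385 genes (8.82%), with the IK6 response above the MIG response in 1039 (6.62%) and below it in 346 (2.20%). The share above was 75.0% of these calls, and it was 57.0% when libraries were scaled by total count, which moved the median difference over all genes from 0.04 to -0.07. It was 60.8% with a filter of at least 1 CPM in 4 libraries. Without MIG DMSO library 3 the interaction passed in 1198 genes, 75.7% of them above. Leaving out each of the 16 libraries in turn gave shares of 63.9 to 76.6%.

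Hypoxia and glycolysis genes responded differently in the vectors (interaction values are the log2 response in IK6 minus that in MIG, ± SE). In MIG cells 7 of 20 hypoxia genes rose and 8 fell (median 0.04), and 2 of 21 glycolysis genes rose and 2 fell (median -0.12). The interaction placed 13 of the 20 and 16 of the 21 higher in IK6 and none lower, where 6.62% of all tested genes were higher. Counts without single libraries were added after seeing the data. Without IK6 NOE library 1 the interaction placed 11 hypoxia and 11 glycolysis genes higher and none lower. Without MIG DMSO library 3 these were also 11 and 11, with none lower, and in MIG cells 6 hypoxia genes rose and 7 fell. The differences of Ldha, Aldoa, Atf4, Gde1, Lass4 and Sgpp1 were lost without that library (adjusted p = 0.0616 to 0.13), while those of the genes described here and below all passed. Adm went from 0.469 ± 0.150 to 0.688 ± 0.200 CPM in MIG cells (interaction 2.58 ± 0.41, adjusted p = 3.69e-05), and P4ha2 from 37.3 ± 4.73 to 50.9 ± 7.21 CPM (interaction 1.50 ± 0.22, adjusted p = 7.76e-06). Ndrg1, which rose in IK6 cells, fell in MIG cells from 73.3 ± 5.59 to 51.8 ± 4.12 CPM (interaction 1.56 ± 0.14, adjusted p = 3.22e-09), and so did Egln1 from 223 ± 21.1 to 182 ± 7.14 CPM. Pfkl was at 426 and 425 CPM in MIG cells (interaction 0.82 ± 0.15, adjusted p = 2.96e-04). Its level in IK6 cells with NOE was 421 CPM. Hk1 was at 186 CPM with DMSO in MIG and 186 CPM with NOE in IK6 (interaction 0.77 ± 0.11, adjusted p = 5.59e-06).

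Cell cycle genes fell in both vectors and further in MIG, where all 32 fell (median -1.58) and 17 passed the interaction. Ccna2 fell from 134 ± 4.58 to 35.7 ± 3.15 CPM in MIG cells (interaction 0.75 ± 0.09, adjusted p = 2.85e-07). Stress response genes did likewise, with 27 of 30 lower in MIG cells (median -0.95) and 18 past the interaction, among them Gpt2, from 54.5 ± 1.12 to 14.6 ± 0.864 CPM (interaction 1.15 ± 0.09, adjusted p = 2.40e-10). Interferon genes rose in both, 22 of 30 in MIG cells, and 10 rose more in IK6. Without MIG DMSO library 3 the interaction passed in 17 cell cycle, 15 stress response and 9 interferon genes. Without IK6 NOE library 1 these were 17, 14 and 9. Of the lipid genes, Ppard went from 57.2 ± 0.583 to 68.1 ± 7.55 CPM in MIG cells (interaction 0.62 ± 0.14, adjusted p = 0.00185), Fabp5 from 95.6 ± 21.9 to 146 ± 8.44 CPM (interaction 0.89 ± 0.22, adjusted p = 0.00785) and Cpt1a from 51.2 ± 1.97 to 32.0 ± 0.718 CPM (interaction 0.42 ± 0.07, adjusted p = 7.02e-05). The recombination genes Rag1 (8.50 ± 0.745 to 74.6 ± 6.85 CPM) and Dntt (73.8 ± 7.48 to 397 ± 26.6 CPM) rose more in MIG cells (interaction -0.63 ± 0.13, adjusted p = 0.00113 for Rag1 and -0.70 ± 0.15, adjusted p = 0.00209 for Dntt).

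The largest differences between the vectors were in single genes. Enpp6 fell further in MIG cells, from 11.7 ± 0.565 to 0.0651 ± 0.0427 CPM (interaction 4.11 ± 0.24, adjusted p = 1.65e-13). Bcar1, an adaptor of integrin signalling, rose in IK6 cells (0.334 ± 0.0737 to 1.70 ± 0.488 CPM) and fell in MIG cells (2.76 ± 0.439 to 1.64 ± 0.161 CPM; interaction 3.12 ± 0.33, adjusted p = 4.71e-08). Mboat2, an acyltransferase of phospholipids, rose in IK6 cells (0.342 ± 0.0196 to 1.67 ± 0.0624 CPM) and was at 0.531 and 0.510 CPM in MIG cells (interaction 2.33 ± 0.31, adjusted p = 2.42e-06). On the other side, Smoc1, a matrix protein (0.191 ± 0.106 to 1.63 ± 0.179 CPM in MIG cells), and the growth factor receptor Fgfr2 (0.185 ± 0.0382 to 0.939 ± 0.183 CPM) rose in MIG cells. In IK6 cells Smoc1 was at 0.836 ± 0.139 CPM with DMSO and 0.915 ± 0.0884 CPM with NOE. Fgfr2 was at 2.36 ± 0.349 CPM with DMSO and 1.71 ± 0.136 CPM with NOE. The call of Fgfr2 was lost without DMSO library 2 or 4 or NOE library 3 (adjusted p = 0.0552 to 0.0819). The interaction values were -2.99 ± 0.31, adjusted p = 3.31e-08 for Smoc1 and -2.74 ± 0.30, adjusted p = 9.52e-08 for Fgfr2. Egr1 fell in IK6 cells and rose in MIG cells, from 9.02 ± 0.863 to 13.0 ± 1.55 CPM (interaction -1.68 ± 0.16, adjusted p = 7.16e-09).

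**Figure D5:**
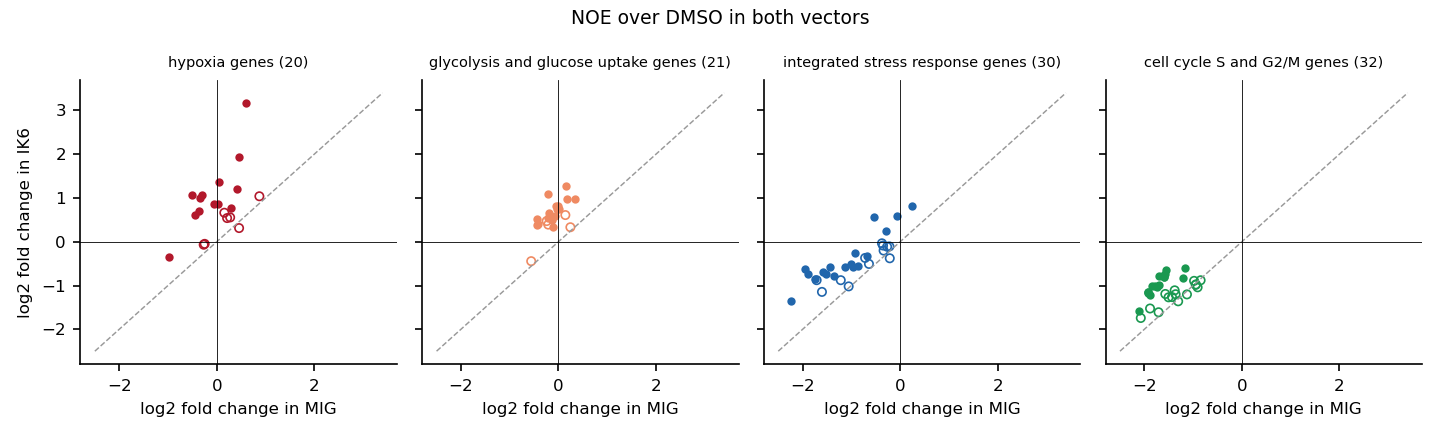
Log2 fold change of NOE over DMSO in IK6 cells (y axis) against that in MIG cells (x axis) for members of 4 gene lists, filled where the interaction passed an adjusted p of 0.05 and open where it did not. The dashed line marks equal responses. Of the hypoxia genes 19 of 20 and of the glycolysis genes 21 of 21 lie above the line, and all 32 cell cycle genes lie in the lower left.

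Carbacyclin, at the same 1 µM in IK6 cells, was compared with NOE directly, since both were measured against the same DMSO libraries. Same-numbered libraries of these compounds deviated together (correlations 0.51 to 0.65). The values below come from a fit without pairing, and what lies behind the shared deviations was not tested. The compounds differed in 7442 genes (47.4%), of which 3551 were higher with carbacyclin (22.6%) and 3891 lower (24.8%). Cpt1a was at 270.1, 279 and 258 CPM in the 3 carbacyclin libraries, far above the 43.9, 45.1, 40.5 and 42.0 CPM of the NOE libraries (log2 ratio 2.65 ± 0.05, adjusted p = 1.59e-27). Pdk4 had 499 reads with carbacyclin and 1 with NOE, a ratio of 892 after scaling by depth with a 95% counting interval of 159 to 35300. Slc25a20 (56.6 ± 3.68 CPM with carbacyclin), Angptl4 (8.85 ± 0.819 CPM) and Plin2 (51.3 ± 6.53 CPM) were higher than with NOE as well, by log2 2.23, 3.00 and 0.87. In all 17 of the 28 PPAR targets were higher with carbacyclin and 5 lower. Acsl1 was lower with carbacyclin (76.2 ± 2.47 CPM), at a log2 ratio of -0.42 ± 0.05, adjusted p = 1.68e-08.

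The cell cycle and hypoxia changes also set NOE apart from carbacyclin. Of 32 S and G2/M genes 31 were higher with carbacyclin than with NOE and none lower, and of 30 MYC and ribosome biogenesis genes 27 were higher. Rrm2 was at 141 ± 6.26 CPM and Nolc1 at 215 ± 6.56 CPM with carbacyclin. Of 20 hypoxia genes 18 were lower with carbacyclin, and of 21 glycolysis genes 17, with P4ha2 at 15.2 ± 4.61 CPM and Adm at 0.671 ± 0.0247 CPM. Igf1 (15.5 ± 1.12 CPM), Arpp21 (3.61 ± 0.335 CPM) and Dntt (111 ± 14.2 CPM) were lower, and Ccr6 (4.12 ± 0.724 CPM), St3gal5 (33.3 ± 1.79 CPM) and Enpp6 (22.0 ± 1.77 CPM) higher, than with NOE. Stc1 (13.3 ± 0.70 CPM) and Gpr110 (4.03 ± 0.245 CPM) were lower than with NOE too. Both lay above their DMSO means of 1.38 and 0.696 CPM, so their rise was not particular to NOE, while Arpp21 lay below its DMSO mean. Carbacyclin against DMSO was not tested. Slpi (0.263 ± 0.0539 CPM), Crisp3 (0.828 ± 0.182 CPM) and Tox (1.25 ± 0.332 CPM) did not differ from NOE past the threshold, with log2 ratios of -0.07 ± 0.39, adjusted p = 0.902, of -0.06 ± 0.21, adjusted p = 0.832 and of -0.14 ± 0.16, adjusted p = 0.511. Among the largest differences upward was Pdgfrb, a growth factor receptor (4.50 ± 0.876 CPM against 0.0480 CPM). Among the largest downward were Slc35d3 (0.328 ± 0.168 CPM against 9.93 CPM), Mybpc1 (1.95 ± 0.160 CPM against 19.4 CPM) and Ly6f (2.68 ± 0.505 CPM against 33.5 CPM).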

How the data were processed

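RNA of all 37 samples was prepared with Trizol and TruSeq RNA v2 libraries and read on a HiSeq 2500, per the labels. The deposited values are whole-number counts of reads per gene for 35290 genes, 1 table per sample. Per the submitters' processing notes, reads were aligned with BWA 0.5.9 to mm9 and counted with HTSeq. Filters, counting mode and strand setting were not stated, so overlapping and near-identical genes may share reads.

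From these counts, edgeR 4.0.16 (R 4.3.3) kept 15699 genes by filterByExpr (minimum count 10, minimum total 15), scaled by TMM and fitted a robust quasi-likelihood model of 10 groups and 37 libraries with 27 residual degrees of freedom. Groups came from sample titles. Adjusted p-values are Benjamini-Hochberg over all tested genes, with 0.05 as the threshold, and SE is the size of the log2 fold change divided by the square root of F. The NOE response was tested in IK6 and in MIG cells, with their difference and carbacyclin against NOE as further contrasts. Promoter windows are RefSeq's (GRCm38.p6), matched by symbol, and no coordinate of theirs was joined to the mm9 counts. The script was tested on simulated data. The 38 gene lists, the members and the rule for named genes were chosen with earlier results of these data known. That rule named the 12 largest rises and falls with at least 1 CPM in 1 group and no overlap, the 10 smallest p, the 6 largest each way in the other contrasts, members of 4 lipid lists, up to 6 members of each other list and genes of the NOE pathway. Predicted genes were left out. Aldoa, Asns, Atf3, Atf4, Bnip3, Ero1l, Fosl2, Gapdh, Hif1a, Ifit2, Il7r, Ldha, Mcl1, Pax5, Psat1, Spry1, Top2a and Vegfa fell outside it and were chosen after their values were seen. Some genes that the rule allows are not reported here.

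Same-numbered IK6 libraries with NOE and DMSO did not deviate together (correlations -0.24 to -0.08), nor did those of MIG in 3 of 4 pairs, so the numbers were not taken as pairs there. For carbacyclin and NOE in IK6 cells the 3 correlations were 0.51 to 0.65, which met the rule for pairing. The numbers of the labels are its only source. The values of carbacyclin against NOE given above nonetheless come from the fit without pairing. Alternatives were DESeq2 1.42.0, other scalings and filters, a replicate block, fits of the compared groups only and leaving out each library. The replicate block took 1 shift per number over all 10 groups, so it did not test pairing of carbacyclin with NOE. Library totals of 30.3 to 63.8 M reads make 1 CPM at least 30 reads. No pair of the 27 within groups differed by as little as sampling noise. Pairs of IK6 NOE libraries differed by a chi-square per degree of freedom of 23.8 to 74.2. Pairs of IK6 DMSO libraries differed less, by 3.18 to 6.64.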

Additional observations from a re-analysis of the deposited data

Results flagged for a closer look

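In 21 of 462 groups of 4 IK6 libraries, 1 library stood far from the others by Dixon's test at 95%, a rate near the 1 in 20 that chance gives. Among the DMSO libraries, 1 library lay above the other three for Clec4f (0.654, the next 0.325), Arpp21 (6.07, the next 5.71), Pdk4 (0.0218, the next 0), Hk1 (116, the next 109), Socs3 (81.9, the next 70.4), Spry4 (13.7, the next 13.0), Dntt (122, the next 114), Lass5 (76.4, the next 74.3), Asns (254, the next 231) and the summed stromal and endothelial markers (56.2, the next 47.8), in CPM. Among the DMSO libraries, 1 library lay below the other three for Slc25a20 (6.32, the next 7.45), Sgms1 (37.8, the next 39.5), Egr1 (36.2, the next 40.0) and Acadl (73.5, the next 81.0), in CPM. Among the NOE libraries, 1 library lay above the other three for Cd36 (4.15, the next 3.21), Pdk4 (0.0204, the next 0), Acat2 (72.5, the next 66.4), Hadha (142, the next 117) and Smpd3 (2.11, the next 1.67), in CPM. Among the NOE libraries, 1 library lay below the other three for H2-Aa (0.210, the next 0.368) and Degs2 (11.9, the next 18.0), in CPM. The Pdk4 values are single reads.

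The NOE response differed between IK6 and MIG cells, by edgeR's interaction test at an adjusted p under 0.05, in 76 of 218 genes examined singly. Over all tested genes 8.82% passed it, and the genes examined include some chosen by this contrast, so the share is no result about them. Values are the log2 response in IK6 minus that in MIG. It was above 0, and largest, in Enpp6 (4.11), Bcar1 (3.12), Adm (2.58), Mboat2 (2.33), Stc1 (1.97), Sphk1 (1.78), Slco5a1 (1.63), Ndrg1 (1.56), Lgr5 (1.53), P4ha2 (1.50), Acot1 (1.43), Egln1 (1.36), Ero1l (1.34) and Bnip3 (1.33). Smaller values above 0 were found in Fosl2 (1.31), En2 (1.18), Gpt2 (1.15), Slc2a3 (1.11), Cd36 (1.06), Srpk3 (0.92), Asns (0.90), Mthfd2 (0.89), Fabp5 (0.89), Cth (0.88), Itgb7 (0.87), Lmo2 (0.85), Ldha (0.83) and Pfkl (0.82). Still smaller were those of Egln3 (0.79), Slc7a5 (0.78), Hk1 (0.77), Ccna2 (0.75), Aldoa (0.74), Tox (0.73), Cd22 (0.72), Bub1b (0.71), Top2a (0.67), Ppard (0.62), Pdk1 (0.62), Hk2 (0.62), Atf3 (0.58) and Gde1 (0.57). Then followed Usp18 (0.56), Shmt2 (0.56), St3gal5 (0.52), Rrm2 (0.52), Acot2 (0.51), P4ha1 (0.47), Abcg1 (0.47), Naaa (0.45), Cpt1a (0.42), Cdkn1b (0.41), Pim1 (0.38), Atf4 (0.35), Sgpp1 (0.33) and Myc (0.30). It was below 0 in Smoc1 (-2.99), Fgfr2 (-2.74), Egr1 (-1.68), H2-Aa (-1.58), H2-Eb1 (-1.49), Ciita (-1.38), Slpi (-1.37), Mybpc1 (-0.93), Dntt (-0.70), Rag1 (-0.63), Rxra (-0.62), Il7r (-0.62), S1pr3 (-0.60) and Tgm2 (-0.58). Values nearer 0 were found in S1pr1 (-0.55), Itgal (-0.43), Btg2 (-0.41), Scn4b (-0.27), Lass4 (-0.27) and Nolc1 (-0.24). The test of the difference was no longer passed under at least 1 alternative for Aldoa, Atf3, Atf4, Cdkn1b, Gde1, Hk2, Lass4, Ldha, Myc, Naaa, Nolc1, Pim1, Rrm2, Sgpp1, Sphk1, Tgm2 and Tox.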

How the results depend on the processing

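The NOE response in IK6 cells passed in 6425 genes, and in 6491 with DESeq2, 6388 with RLE scaling, 6256 with scaling by total count, 5813 with no filter, 6029 with at least 1 CPM in 4 libraries, 6471 in a fit of the compared groups alone and 6227 with the replicate block. Leaving out each library in turn gave 5724 to 6259. Its difference from MIG cells passed in 1385 genes, and in 1550 with DESeq2, 1322 with RLE scaling, 1192 with scaling by total count, 1038 with no filter, 1395 with at least 1 CPM in 4 libraries, 1299 in a fit of the compared groups alone and 1287 with the replicate block. Leaving out each library in turn gave 1112 to 1496. Carbacyclin against NOE passed in 7442 genes, and in 7489 with DESeq2, 7435 with RLE scaling, 7236 with scaling by total count, 6953 with no filter, 6946 with at least 1 CPM in 4 libraries, 6310 in a fit of the compared groups alone and 7253 with the replicate block. Leaving out each library in turn gave 6219 to 7506. None of these counts moved by over 1.5 times, and in none of these settings did a gene called both there and above have the opposite direction. The replicate block moved none of the 3 counts by over 1.5 times. Same-numbered NOE and DMSO libraries share only a number. Genes with a few reads in a group rest largely on counting error. The cause of the shifts was not tested.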
